A study of Homo sapiens with 12 samples.

Results

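The early response of LX-2 cells to a miR-25 mimic was read 24 h after transfection in 6 of the 12 samples of the series, 3 that received the miR-25 mimic and 3 that received a control mimic. LX-2 is an established line of activated human hepatic stellate cells (HSCs), the cells that lay down scar matrix in the injured liver. All samples came from this 1 line, grown in DMEM with a low serum content, and both mimics were given at 10 pmol/ml, the control being a mimic built on a Caenorhabditis elegans sequence. The other 6 samples were harvested at 48 h and are used here for comparison. Each of the 3 transfections, numbered as replicates 1, 2 and 3, gave 1 control and 1 miR-25 sample with a shared transfection efficiency, so the 6 samples formed 3 pairs. The efficiency was measured in a parallel well of the same plate with a fluorescein-labelled control miRNA, not in the samples themselves, and the ratios below are not corrected for it. The study's methods describe its data in general as independent experiments. Neither they nor the labels say how the cultures of these transfections were set apart, so p-values measure the spread between transfection pairs. In the fit of all 12 samples that spread came from the pairs of both time points. Of the 199 genes on the panel, the 142 with a mean of at least 20 counts over the 6 samples were taken.

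Notch, Wnt and Hedgehog are signalling routes through which cells read their neighbours, and each has been linked to the activation of HSCs. A Notch ligand on 1 cell binds a receptor on the next. ADAM sheddases, such as ADAM17, and the γ-secretase complex then cut the receptor, and its freed inner part enters the nucleus. Wnt proteins bind Frizzled receptors, and Dishevelled and casein kinases relay the signal to β-catenin or, in noncanonical routes, to small GTPases and kinases such as CDC42, while Hedgehog ligands release Smoothened (SMO), which acts on the GLI transcription factors. A miRNA lowers its target mRNAs through its seed, bases 2 to 8 of the mature strand, which pairs with the target.

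The mature strand that the mimic imitates is shown with miR-92a-3p and miR-363-3p of its family, because all members share a seed and so the sites it can read. The members miR-92b-3p, miR-367-3p and miR-32-5p have the same seed and are not shown. The sequences are from RefSeq (GRCh38.p14), 5′ to 3′, with the seed in capitals. MIR25 lies on the minus strand, and the mature strand is at chr7:100093571-100093592.
miR-25-3p: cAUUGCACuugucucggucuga
miR-92a-3p: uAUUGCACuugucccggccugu
miR-363-3p: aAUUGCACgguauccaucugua
The DNA form of the seed's complement, GTGCAAT, was searched in the 100-base stretches that the panel's probes bind. It was found on the transcript strand in 0 of the 193 stretches given and on the opposite strand in 1. The stretches are a small part of each transcript, and no other part was searched.

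MiR-25 itself, as given in the labels relative to the control of the same pair, was at 62.34 in replicate 1, 192.53 in replicate 2 and 350.13 in replicate 3. The transfection efficiency stood in the same order, at 59%, 75% and 81%. All 3 pairs thus carried far more miR-25 than their controls, replicate 1 the least. Going through the pairs in that order, the ratio of miR-25 to control increased at each step for 19 genes and decreased at each step for 28, and 3 pairs allow no test of such an order.

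The total count over the genes was 321243 to 404404 in the control samples and 367498 to 409581 in the miR-25 samples, and GAPDH took 26.9% to 30.1% of it. For the values below, each count was divided by the total of its sample and multiplied by the mean total of 372446, and is called the scaled count. The 4 stellate or mesenchymal markers on the panel (COL1A1, CDH2, CD44 and CXCL12) were above background in every sample, with a summed count of 26765 to 32335. The summed count of 4 T cell genes, of which CD4 alone passed background, was 33 to 60 in the controls and 53 to 68 with miR-25. It was 29 to 41 and 38 to 48 for 4 epithelial genes and 69 to 85 and 53 to 111 for 6 pluripotency genes. In a sample, 1 to 3 of the epithelial and 2 to 3 of the pluripotency genes passed background. POU5F1 (mean 36.5 counts) passed it in all 6 samples. Of the 57 genes left out, 37 were above background in no sample. The genes just inside the limit were ISL1 (mean 20.5 counts), TCF7 (23.3) and WNT9A (25.5), and those just outside were WNT10A (18.3), SOX1 (16.8) and NANOG (16.7).

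The response at 24 h was small. In edgeR's quasi-likelihood fit of all 12 samples, blocked by transfection pair, with p-values adjusted over the 142 genes, 0 genes (0.0%) passed an adjusted p of 0.05. At an unadjusted p of 0.05, 10 genes (7.04%) passed, 9 of them higher with miR-25 (6.34%) and 1 lower (0.704%). DESeq2 and limma likewise called 0 genes, with 2 and 4 at an unadjusted p of 0.05. The fit of the 24 h samples alone called 3 genes (2.11%), namely FOSL1 and CCND1, which rose (1.41% of genes), and CXCL12, which fell (0.704%). These 3 calls rest on which samples set the spread: the 12-sample fit also called them when replicate 1 at 48 h was left out, while the fit of the 24 h samples alone called 0 genes without replicate 1, 0 without replicate 2 and 14 without replicate 3, among them FOSL1 and CCND1 but not CXCL12. Scaling also decided them, since in the 24 h samples alone reference genes kept FOSL1 and CCND1 as calls and TMM kept CXCL12.

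In edgeR's fit of 12 samples, blocked by pair, the data bounded most genes. The median standard error of the log2 fold change was 0.061, and the 95% interval lay within 1.5-fold in either direction for 132 of the 142 genes, among them all 115 genes that averaged 100 counts or more. It lay within 1.2-fold for 101 genes. Standard errors depended on the fit. For COL1A1 it was 0.063 here, 0.074 with DESeq2 and 0.379 in edgeR without the pair as a block. For PSEN2 the values were 0.063, 0.123 and 0.188, so the bounds are those of the blocked edgeR fit. The geometric average of the 3 ratios was beyond 1.5-fold for 1 gene, NCAM1, which averaged 30 counts.

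**Figure D1:**
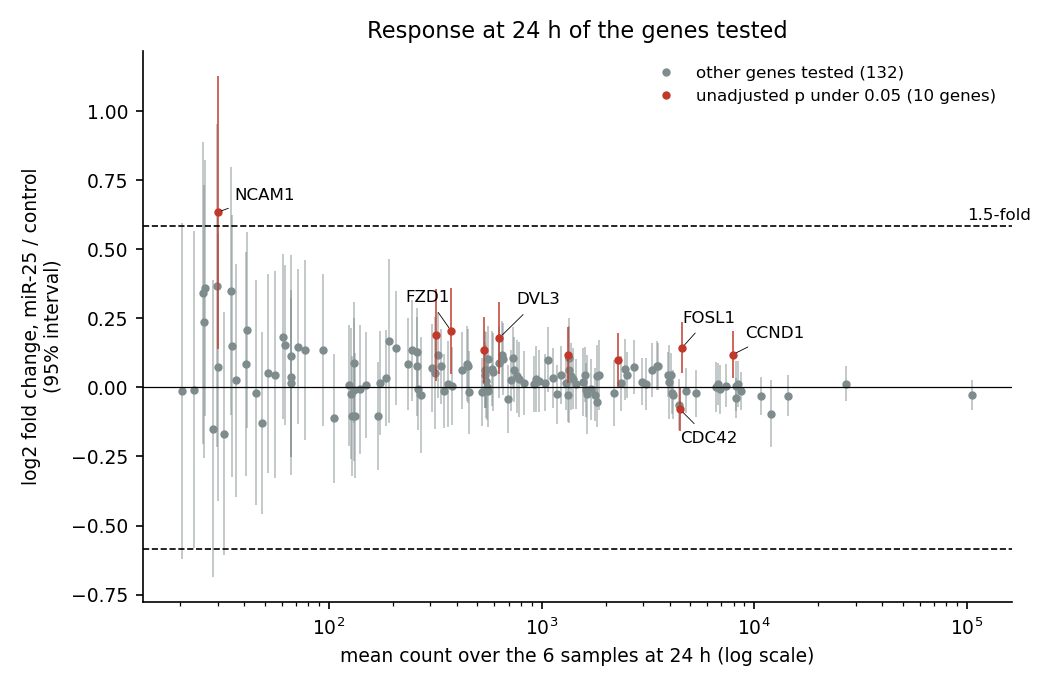
Log2 fold change of miR-25 over control at 24 h (vertical axis, with 95% intervals from the edgeR fit of 12 samples) against the mean count of each gene (horizontal axis, log scale). The 10 genes with an unadjusted p under 0.05 are red, the dashed lines mark 1.5-fold, and every gene that averaged 100 counts or more has its whole interval between these lines.

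More genes stood on the higher side than on the lower. With scaling to the panel total, 36 genes (25.4%) were higher with miR-25 in all 3 pairs and 8 (5.63%) were lower, so that 81.8% of the genes that kept 1 direction were higher. This split moved with the scaling: by TMM, which sets the bulk of the genes level, it was 25 higher and 20 lower (55.6% higher), and by 5 reference genes it was 46 and 3 (93.9% higher). The median log2 ratio over all genes was 0.04 ± 0.01 (SD, n = 3 pairs) and moved by -0.03 under TMM, so the directions of genes near a ratio of 1 depend on the scaling. The control and miR-25 ranges did not overlap for 5 genes (3.52%), MAML2, FURIN, CSNK1D, MYC and PPARD, all higher with miR-25. MAML2 and CSNK1D lie outside the rule for named genes and were chosen after their values were seen.

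**Figure D2:**
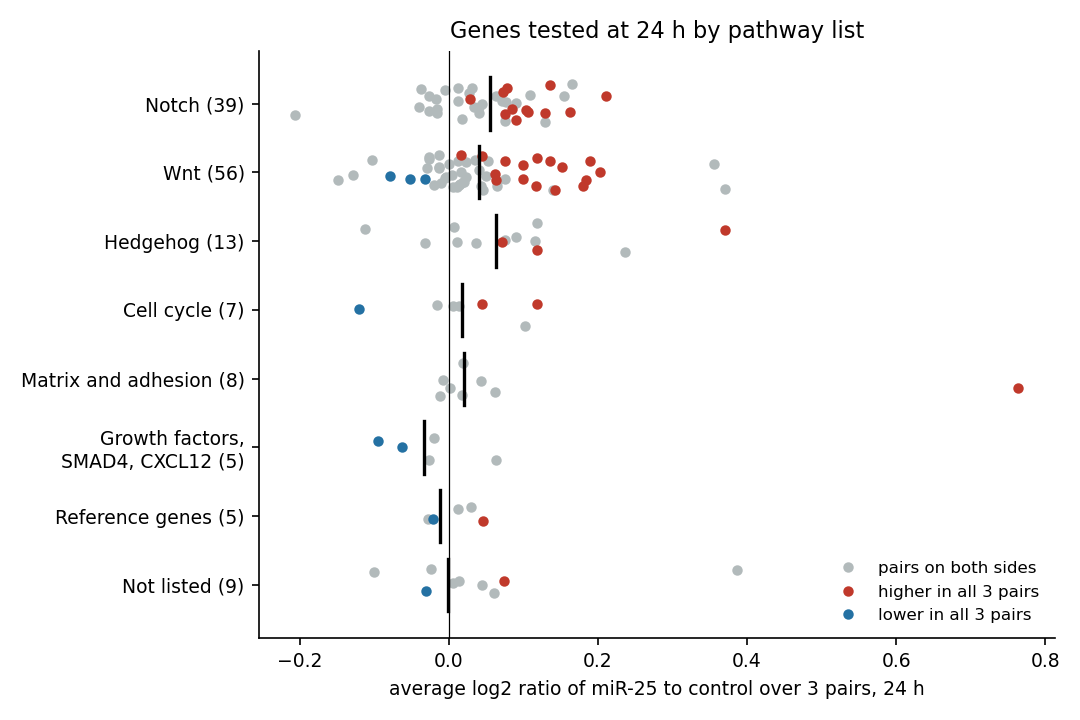
Log2 ratio (miR-25 over control) at 24 h, averaged over the 3 pairs, for each gene tested (1 point a gene), by pathway list with the number of genes in brackets; points are spread vertically for sight only. Red and blue points were higher or lower in all 3 pairs, black bars are the mean of the 3 pairs' medians, and every bar lies within 0.07 of 0, with the Notch bar at 0.05, the Wnt bar at 0.04 and the Hedgehog bar at 0.06.

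FOSL1 (NM_005438.2) encodes FRA-1, an AP-1 transcription factor that Wnt signalling can induce. Its scaled count was 3995, 4472 and 4591 in control replicates 1, 2 and 3, and 4588, 5102 and 4719 in the miR-25 samples of the same pairs. It was higher with miR-25 in each pair, least in replicate 3, and the lowest miR-25 sample lay just under the highest control. The log2 fold change was 0.14 (SE 0.04), with an interval of 1.04- to 1.18-fold, an adjusted p of 0.432 in edgeR's fit of 12 samples and of 0.0017 in the fit of the 24 h samples alone.

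CCND1 (NM_053056.2) encodes cyclin D1, which drives cells into the cycle and is a known target of Wnt signalling. Its scaled count was 8898, 6736 and 6886 in the controls and 9825, 7587 and 7078 with miR-25. Replicate 1 stood above the others in both groups, so the groups overlapped although each pair was higher with miR-25. The log2 fold change was 0.12 (SE 0.04, interval 1.02- to 1.15-fold), and edgeR's adjusted p was 0.432 over 12 samples and 0.0050 in the 24 h samples alone.

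CXCL12 (NM_199168.2), a chemokine secreted by stromal cells, went the other way. Its scaled count was 11662, 12200.0 and 13386 in the controls and 11537, 11546 and 11727 with miR-25. The miR-25 samples were close together, and the difference within a pair followed the level of the control, smallest in replicate 1 and largest in replicate 3. The miR-25 level and the transfection efficiency of the pairs stood in the same order, so these cannot be told apart. The log2 fold change was -0.10 (SE 0.06, interval 0.861- to 1.02-fold), with an adjusted p of 0.770 over 12 samples and of 0.0363 in edgeR's fit of the 24 h samples alone. Without replicate 3 the latter fit gave a log2 fold change of -0.05 and an adjusted p of 0.517.

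The Wnt list held 56 of the 142 genes tested (77 on the panel). At an unadjusted p of 0.05 in edgeR's fit of 12 samples, 7 of the 56 were higher with miR-25 and 1 was lower. Of all 142 genes, 9 were higher and 1 was lower (6.34% and 0.704%). Across the list 16 genes were higher in all 3 pairs and 3 lower (28.6% and 5.36%, against 25.4% and 5.63% of all genes). TMM gave 11 and 9 of the 56, beside 17.6% and 14.1% of all genes. The median log2 ratio was 0.04 ± 0.02 (SD, n = 3 pairs) with scaling to the total. In edgeR's fit of 12 samples, adjusted p was above 0.05 for every member.

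Among Wnt ligands and antagonists, only 5 of 21 were expressed highly enough to be tested. WNT5A, a ligand of the noncanonical route, had scaled counts of 1787, 1557 and 1608 in the controls and 1834, 1486 and 1554 with miR-25. These groups overlapped and the pairs went both ways, with an interval of 0.891- to 1.08-fold. WNT5B was higher in all 3 pairs, but by ratios of only 1.02, 1.01 and 1.01, and its log2 fold change took the other sign under TMM scaling, at -0.02.

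Of the 7 receptors tested, FZD1, a Frizzled receptor, had the highest average ratio. Its scaled count was 339, 314 and 399 in the controls and 419, 387 and 399 with miR-25. Replicates 1 and 2 were higher with miR-25 and replicate 3 was level, at a ratio of 1.00. The log2 fold change was 0.20 (SE 0.07, interval 1.03- to 1.28-fold), with an adjusted p of 0.432 in edgeR's fit of 12 samples.

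Of the genes for relay proteins and the β-catenin destruction complex, such as APC and GSK3B, 6 of 21 were higher in all 3 pairs and 1 lower. These shares (28.6% and 4.76%) were close to the 25.4% and 5.63% of all genes. DVL3, a Dishevelled protein that passes the signal on from the receptor, had scaled counts of 506, 648 and 640 in the controls and 635, 676 and 710 with miR-25. The low control of replicate 1 gave the largest of its ratios, 1.26, beside 1.04 and 1.11. The casein kinase genes CSNK1G2 (ratios 1.12, 1.18 and 1.12) and CSNK1E (1.06, 1.11 and 1.05) were also higher in each pair. CTNNB1, which encodes β-catenin, had ratios of 0.966, 0.978 and 0.991, and its interval of 0.933- to 1.03-fold was among the narrow ones.

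Of the 9 transcription and target regulators of this pathway, 4 were higher in all 3 pairs and 0 lower (44.4% and 0.0%, against 25.4% and 5.63% of all genes). MYC, a growth regulator, had scaled counts of 1264, 1266 and 1288 in the controls and 1359, 1410 and 1371 with miR-25. All miR-25 samples lay above all controls, by ratios of 1.08, 1.11 and 1.06. PPARD, a nuclear receptor, showed the same separation, with 532, 479 and 519 in the controls and 585, 536 and 560 with miR-25. EdgeR's adjusted p in the fit of 12 samples was 0.485 for both.

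Noncanonical effectors and protein kinase C genes were the only Wnt sub-list with more than 1 gene lower in all 3 pairs, 2 of 14, beside 4 higher (14.3% and 28.6%, against 5.63% and 25.4% of all genes). CDC42, a small GTPase of the cytoskeleton, had scaled counts of 4727, 4659 and 4421 in the controls and 4344, 4444 and 4277 with miR-25. It was lower in each pair, with a log2 fold change of -0.08 (SE 0.04) and an adjusted p of 0.683 in edgeR's fit of 12 samples. MAPK9, a stress kinase (JNK2), had ratios of 0.963, 0.944 and 0.989, and PRKCA, protein kinase Cα, had ratios of 1.05, 1.04 and 1.13.

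The Notch list was expressed almost in full, with 39 of 42 genes tested. Of these, 12 were higher in all 3 pairs and 0 lower (30.8% and 0.0%, against 25.4% and 5.63% of all genes). TMM scaling gave 10 higher and 2 lower of the 39, beside 17.6% and 14.1% of all genes. The median log2 ratio was 0.05 ± 0.02 (SD, n = 3 pairs), beside 0.04 ± 0.01 over all genes. It was 0.0202 under TMM and 0.0724 by reference genes, beside 0.0017 and 0.0539 over all genes. In edgeR's fit of 12 samples, 0 genes of the list passed an unadjusted p of 0.05 in either direction.

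Of the 4 ligands tested, 2 were higher in all 3 pairs, against 25.4% of all genes. JAG2 had scaled counts of 43, 38 and 32 in the controls and 51, 40 and 41 with miR-25, and DLL3 had 68, 49 and 58 against 72, 56 and 67. Both were higher in each pair, with overlapping groups and intervals of 0.904- to 1.48-fold and 0.91- to 1.36-fold. JAG1, a ligand linked to stellate cell activation, had ratios of 1.00, 0.996 and 1.06, and DLL1 had 1.2, 0.973 and 0.999.

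Among the receptors, NOTCH1 had scaled counts of 122, 130 and 130 in the controls and 125, 131 and 152 with miR-25. Replicates 1 and 2 were nearly level and replicate 3 was higher, and the interval ran from 0.915- to 1.24-fold. NOTCH2 (mean 2722 counts) had ratios of 1.09, 1.06 and 1.01. NOTCH3 (0.778, 1.11 and 0.758) and NOTCH4 (1.33, 0.781 and 1.06) averaged 32 and 56 counts and went both ways.

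ADAM17, which the paper describes as a sheddase of NOTCH1, had scaled counts of 705, 791 and 834 in the controls and 735, 793 and 846 with miR-25. Its level varied more between transfections than within any pair, and its interval was 0.928- to 1.12-fold. The log2 fold change was 0.03 with scaling to the total and -0.01 under TMM, so it had no settled direction. FURIN, which cuts the receptor on its way to the surface, was at 235, 223 and 246 in the controls and 246, 269 and 257 with miR-25. PSEN2, a presenilin of the γ-secretase complex, had ratios of 1.09, 1.05 and 1.03. With scaling to the total, ADAM17, FURIN and PSEN2 were the 3 of 7 processing genes tested that were higher in all 3 pairs. Of the list 0 were lower (42.9% and 0.0%, against 25.4% and 5.63% of all genes) and 4 were mixed.

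In the nucleus, the coactivators MAML1 (ratios 1.05, 1.05 and 1.13) and MAML2 (1.06, 1.04 and 1.08) and the deacetylase HDAC1 (1.06, 1.07 and 1.04) were higher in each pair. They were the only 3 of the 16 nuclear genes tested to be so, and 0 were lower (18.8% and 0.0%, against 25.4% and 5.63% of all genes). The other 13 were mixed. HES1, a classical target of Notch signalling, had scaled counts of 132, 140 and 114 in the controls and 129, 126.3 and 125 with miR-25. Its pairs went both ways, and its interval was 0.835- to 1.16-fold. Among modulators, RFNG, a Fringe glycosyltransferase, had ratios of 1.15, 1.04 and 1.04, and DTX3 of the Deltex family had 1.15, 1.10 and 1.03. These 2 were the only ones of the 8 modulators tested that were higher in all 3 pairs, and 0 were lower (25.0% and 0.0%).

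Of the 19 Hedgehog genes 13 were tested, 3 were higher in all 3 pairs and 0 lower (23.1% and 0.0%, against 25.4% and 5.63% of all genes), and 0 passed an unadjusted p of 0.05. Under TMM 2 of the 13 were higher and 1 lower, beside 17.6% and 14.1% of all genes. GLI2, the main activating transcription factor of the pathway, had scaled counts of 565, 637 and 690 in the controls and 651, 692 and 705 with miR-25. The difference was largest in replicate 1, and the interval was 0.998- to 1.18-fold. GLI3 had ratios of 1.13, 1.01 and 1.02. SMO, the transducer at the membrane, had 142, 151 and 158 in the controls and 147, 143.5 and 162 with miR-25, with pairs on both sides. GAS1, a co-receptor averaging 26 counts, was at 1.40, 1.47 and 1.05 times its control, with an interval of 0.93- to 1.77-fold.

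Of the 7 cell cycle genes tested, 2 were higher in all 3 pairs and 1 was lower (28.6% and 14.3%, against 25.4% and 5.63% of all genes). CDK1 (ratios 0.987, 1.00 and 1.02) and CCNA2 (0.999, 1.02 and 1.01), which are needed for division, had intervals of 0.952- to 1.06-fold and 0.953- to 1.07-fold. RB1, the brake that cyclin D1 releases, had ratios of 1.02, 1.03 and 1.05. CCND2, another D cyclin, had scaled counts of 106, 158 and 152 in the controls and 85, 155 and 149 with miR-25, lower in each pair and mostly in replicate 1. CCND3 (1.08, 1.19 and 0.960) and CCNE1 (1.01, 0.948 and 1.02) went both ways.

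Of the 8 matrix and adhesion genes tested, 1 was higher in all 3 pairs and 0 lower (12.5% and 0.0%, against 25.4% and 5.63% of all genes). COL1A1, the main fibrillar collagen of scar tissue, had scaled counts of 3923, 3904 and 4062.5 in the controls and 4223, 3839 and 4000 with miR-25. Replicate 1 was higher and the others slightly lower, and the interval was 0.925- to 1.11-fold. CD44 (ratios 1.02, 0.968 and 0.996), CDH2 (0.964, 1.04 and 1.01), CTNNA1 (0.988, 0.953 and 1.04) and MME (0.983, 0.995 and 1.06) lay on both sides of 1. BMP1 had ratios of 1.08, 1.07 and 0.947, and PLAU, the urokinase plasminogen activator, 1.04, 0.983 and 1.11.

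NCAM1, an adhesion molecule with raw counts of 10 to 48, had the largest average ratio of the 142 genes tested, 1.80 ± 0.765 (SD, n = 3). Its scaled count was 9.2, 30 and 32 in the controls and 25, 37 and 49 with miR-25. The control of replicate 1 was below background, and that pair alone had a ratio of 2.67. The interval was 1.10- to 2.18-fold, with an adjusted p of 0.432 in edgeR's fit of 12 samples.

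Of the 5 growth factor, TGF-β family and chemokine genes tested, CXCL12 and FGF2 were lower in all 3 pairs and 0 genes were higher (40.0% and 0.0%, against 5.63% and 25.4% of all genes). Over the whole panel the number lower in all pairs was 8 here, 20 under TMM and 3 by reference genes. FGF2, a fibroblast growth factor, had ratios of 0.959, 0.968 and 0.946. SMAD4, the shared partner of the TGF-β-regulated SMADs, had ratios of 1.00, 0.988 and 0.954 and an interval of 0.919- to 1.05-fold. Of the 5 reference genes, 1 was higher and 1 lower in all 3 pairs, and their intervals all lay within 1.2-fold.

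At 48 h the ratios of several genes stood elsewhere, but the difference between the time points passed an adjusted p of 0.05 for 0 of the 142 genes (0.0%) in edgeR's test of the interaction, and for 8 (5.63%) at an unadjusted p of 0.05. DESeq2 and limma also called 0 differences, with 2 and 8 at an unadjusted p of 0.05. At 48 h alone 1 gene (0.704%) was called, FGF1, with 24 h ratios of 0.950, 1.00 and 1.00 against 48 h ratios of 1.59, 1.23 and 1.17 (edgeR's adjusted p for the difference 0.0832). Its call for the difference depended on the scaling and the filter, and the settings that gave it are listed with the alternatives. Totals at 48 h were less than those at 24 h, at 107377 to 200821. The transfection efficiency was also lower, at fractions of 0.42, 0.61 and 0.65 in replicates 1, 2 and 3, against 0.59, 0.75 and 0.81 at 24 h. MiR-25 relative to the control was higher at 48 h in each replicate, at 347.45, 482.36 and 681.22. The effects of time, depth, efficiency and miR-25 level thus cannot be told apart.

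Over all 142 genes, 36 were higher and 8 lower in all 3 pairs at 24 h, and 23 were higher and 26 lower at 48 h. Among genes that kept 1 direction over the 3 pairs at 24 h, 7 were higher at both time points (GLI2, FOSL1, PRKCD, WNT5B, JAG2, DTX3 and DLL3) and 2 were lower at both (CXCL12 and PGK1). Neither shared nor opposite directions at the time points were tested against the counts over all genes. JAG2 had ratios of 1.73, 1.46 and 1.38 at 48 h, and CXCL12 had 0.620, 0.918 and 0.924. PAFAH1B1, PSEN2, GAS1 and NOTCH1 were higher in all pairs at 24 h and lower in all pairs at 48 h, and HPRT1 and MAPK9 were the reverse. These directions were read with scaling to the panel total, and those of ratios near 1 depend on it. At 24 h PAFAH1B1 had ratios of only 1.02, 1.04 and 1.04, and NOTCH1 was nearly level in replicates 1 and 2. For NOTCH1 the 48 h ratios were 0.739, 0.705 and 0.982, and the log2 difference between the time points was -0.37 (SE 0.17), with an adjusted p of 0.703 in edgeR's interaction test. PRKCD, PGK1, HPRT1 and FGF1 were named after their values were seen.

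**Figure D3:**
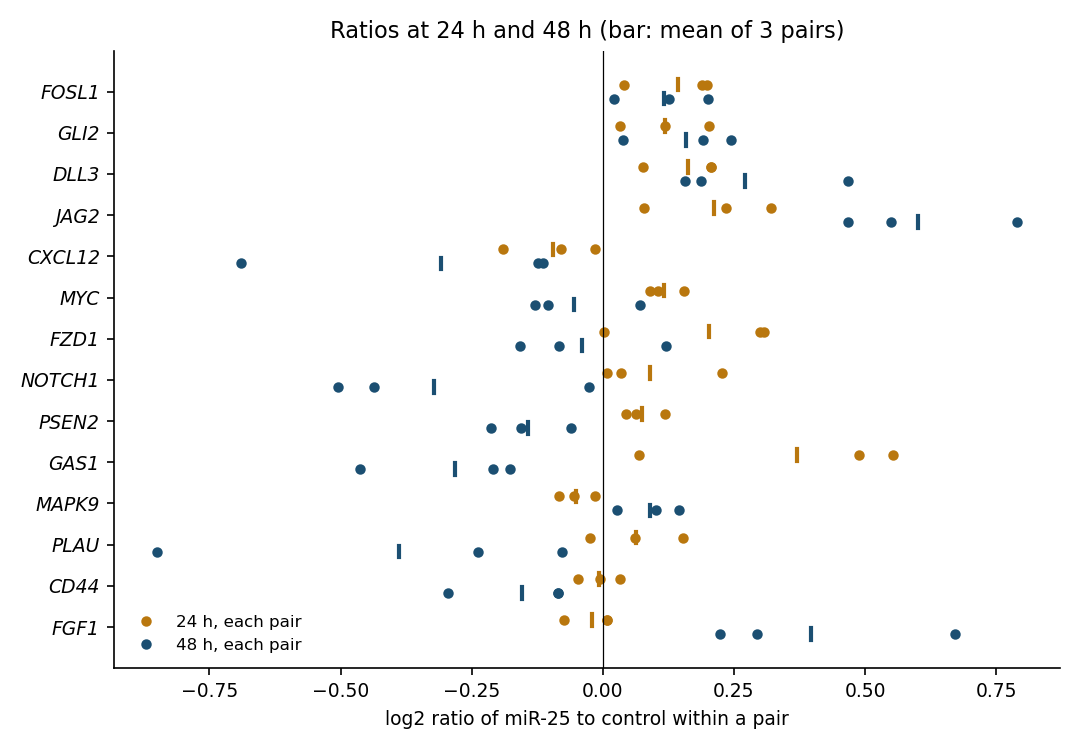
Log2 ratio of miR-25 to control within each of the 3 transfection pairs (points) and their mean (bars) at 24 h and 48 h for 14 genes, chosen after their values were seen. GLI2, FOSL1, JAG2 and DLL3 lie above 0 and CXCL12 below it at both times, while all points of NOTCH1, PSEN2 and GAS1 lie above 0 at 24 h and below it at 48 h.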

How the data were processed

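The authors deposited raw nCounter counts per probe, before background correction or scaling, for 199 genes, 8 negative and 6 positive control probes. Their later steps, among them the correction for transfection efficiency, were not repeated. Gene names came from the panel sheet for 193 identifiers and from RefSeq (GRCh38.p14) for 6.

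The quasi-likelihood test of edgeR 4.0.16 (R 4.3.3) was fitted to the counts of all 12 samples, blocked by transfection pair, with library sizes set to the summed gene counts, for genes averaging 20 counts or more at 24 h. P-values were adjusted by Benjamini-Hochberg over 142 genes (threshold 0.05). Background was the mean of the negative probes plus 2 SD in each sample. The labels give a shared efficiency within a pair, and deviations from the group means correlated within pairs by 0.262 to 0.456. DESeq2 1.42.0, limma 3.58.1 (pseudocount 1), TMM, reference genes, other filters, no block, the 24 h samples by themselves and leaving out each pair in turn were the alternatives. With 3 pairs an exact sign-flip permutation test cannot go below p = 0.25 (two-sided). The fit was tested on simulated data.

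The members and lists were chosen with earlier results of these data known. Named genes were those called or with an unadjusted p under 0.05, the 2 of smallest p in each direction of each list among genes changed 1 way in all pairs, all tested Notch receptors and ligands, cell cycle and matrix genes, and ADAM17, HES1, SMO, SMAD4, COL1A1 and WNT5A.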

Additional observations from a re-analysis of the deposited data

How the results depend on the processing

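The number of genes called at 24 h was 0 in the fit of 12 samples under TMM, reference gene scaling, DESeq2, limma, limma after background subtraction, DESeq2's size factors in edgeR, other filters and without the pair as a block, and 0 to 3 with 1 pair left out. The fit without the replicate block had 0 genes also at an unadjusted p of 0.05. The 24 h samples alone gave 3 calls, and in settings added after seeing the data 3 with limma, 2 with reference genes, 1 with TMM, 0 with DESeq2, 0 without the block and 0 to 14 with 1 pair left out. The difference between time points had 1 call, FGF1, under TMM, with no filter on low counts and with DESeq2's size factors. Genes lower in all 3 pairs numbered 20 under TMM and 3 by reference genes.

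Median log2 ratios under TMM were 0.0202 for Notch, 0.0061 for Wnt, -0.0165 for the cell cycle and -0.0145 for matrix genes, and by reference genes 0.0724 for Notch and 0.0357 for the cell cycle. Over all genes the median was 0.0017 under TMM and 0.0539 by reference genes. Log2 fold changes turned sign under TMM for ADAM17 (-0.006), CCNA2 (-0.0214), CDH2 (-0.0334), CDK1 (-0.029), COL1A1 (-0.0142), JAG1 (-0.0092), MME (-0.0182), SMO (-0.0263) and WNT5B (-0.019), and by reference genes for CCNE1 (0.0045), CD44 (0.0108) and CTNNA1 (0.0058). The cause of these changes was not tested.
With 1 pair left out, the log2 fold change ranged from -0.0298 to 0.0155 for CCNE1, -0.0269 to 0.0134 for CD44, -0.0229 to 0.0288 for CDH2, -0.0062 to 0.0182 for CDK1, -0.0233 to 0.0426 for COL1A1, -0.0436 to 0.0169 for CTNNA1, -0.021 to 0.1444 for DLL1, -0.0871 to 0.0441 for HES1, -0.0005 to 0.0419 for JAG1, -0.0162 to 0.0382 for MME, -0.1592 to 0.2624 for NOTCH4 and -0.0163 to 0.0477 for SMO, with CDH2 at -0.0015 and SMO at -0.007 without replicate 3.
In edgeR's blocked fit of 12 samples, the intervals of 10 genes, all with means below 100 counts, reached beyond 1.5-fold. These data do not bound them at that size.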
